A study of Mus musculus with 9 samples.

Results

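The 10 genes described here encode the mouse MHC class II molecules and the proteins that load and regulate them. They were taken by gene symbol from the count files of 9 iris libraries, in which 18349 genes were listed, and all 10 were found and were among the 15010 genes with enough counts to be tested. They are the chains of the classical molecules (*H2-Aa*, *H2-Ab1* and *H2-Eb1*), the invariant chain (*Cd74*), the transactivator (*Ciita*), the subunits of the peptide exchange factor H2-M (*H2-DMa*, *H2-DMb1* and *H2-DMb2*) and those of its inhibitor H2-O (*H2-Oa* and *H2-Ob*).

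RNA-Seq was performed on irises of *VEGFR3fl/fl* mice that received PBS on the cornea (Sham), of *VEGFR3fl/fl* mice with corneal alkali injury (CAI) and of *VEGFR3iLECko* mice with CAI, to ask what loss of VEGFR3 from lymphatic endothelial cells (LECs) does to the injured iris. CAI was induced with 0.5 µL of 1 M NaOH for 60 seconds at 6 weeks of age, and the irises were collected at 10 weeks. All groups carried the floxed allele on a C57BL/6J background, and 80 mg/kg tamoxifen was given on days 13 to 17 after injury. *VEGFR3iLECko* mice carried *Prox1-CreERT2* in addition, a tamoxifen-inducible Cre expressed in LECs, by which the deletion was meant to act in LECs and not in leukocytes. LECs are few among the cells of an iris. Each library pooled 3 irises of 1 genotype, with 3 libraries per group. The genotype tags of the labels call the *VEGFR3fl/fl* animals WT, and those of *VEGFR3iLECko* replicates 2 and 3 name Vegfr4 and Vegfr5, whereas titles and descriptions name VEGFR3 for all 3.

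MHC class II molecules carry peptides from endocytosed proteins to the cell surface, where CD4+ T cells read them. Dendritic cells, B cells and activated macrophages are their main sources, and other cells, including endothelium and iris epithelium, can acquire them under IFN-γ. The alpha and beta chains assemble with the invariant chain, which is then degraded by cathepsins in endosomes until H2-M exchanges its last fragment for antigenic peptide, and H2-O restrains H2-M. Transcription of nearly all of these genes depends on CIITA, which binds no DNA itself but docks on a complex of RFX, CREB and NF-Y assembled on short promoter elements called the X and Y boxes.

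The promoters of 7 of the 10 genes were found in a RefSeq table (build GRCm38.p6). *H2-Ab1*, *Cd74* and *Ciita* had no entry. Of these 7, 5 are shown, because each holds the letters of the X box, the Y box or both, in a window from 130 to 31 bases before the RefSeq start, 5′ to 3′ on the coding strand. Capitals mark the letters AACNNNTGA of the X box, TGATTGG of the Y box and, in *H2-Aa*, TGACGTCA, the CREB binding site that forms part of the X region. These letters were chosen after the sequences had been seen. The windows lie at chr17:34287854-34287953 on the minus strand for *H2-Aa*, and on the plus strand at chr17:34305737-34305836 for *H2-Eb1*, chr17:34145119-34145218 for *H2-DMb2*, chr17:34092249-34092348 for *H2-Oa* and chr17:34238775-34238874 for *H2-Ob*. Gene positions given further on are the outer bounds of the GENCODE transcripts of GRCm38, which start elsewhere for some genes: the window of *H2-DMb2* lies wholly in a GENCODE intron, and 9 bases of that of *H2-Oa* and 89 of that of *H2-DMb1*, not shown for that reason, lie in a first exon.
H2-Aa: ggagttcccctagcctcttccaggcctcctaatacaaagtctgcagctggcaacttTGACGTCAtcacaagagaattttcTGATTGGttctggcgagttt
H2-Eb1: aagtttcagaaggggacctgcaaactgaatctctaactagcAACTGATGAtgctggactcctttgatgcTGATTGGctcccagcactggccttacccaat
H2-DMb2: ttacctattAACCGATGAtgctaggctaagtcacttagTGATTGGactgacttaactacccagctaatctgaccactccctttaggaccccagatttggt
H2-Oa: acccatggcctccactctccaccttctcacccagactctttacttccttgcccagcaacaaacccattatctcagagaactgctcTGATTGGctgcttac
H2-Ob: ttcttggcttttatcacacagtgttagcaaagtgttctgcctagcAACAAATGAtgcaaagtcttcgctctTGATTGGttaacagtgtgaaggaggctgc

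The search was not limited to the stretches shown. It covered both strands of each whole promoter window, from 250 bases before the RefSeq start to 50 after it. The Y box letters were present in 6 of the 7 promoters, against 7.82% of 32851 such windows in the table. The X box letters were in 4 of the 7 and in 11.9% of all windows, and the CREB letters were in *H2-Aa* alone of the 7 and in 1.79% of all windows. An X box followed within 60 bases by a Y box on the same strand was found in *H2-Eb1*, *H2-DMb1*, *H2-DMb2* and *H2-Ob*, and in 0.177% of all windows. From the first letter of X to the first letter of Y were 28 bases in *H2-Eb1*, 29 in *H2-DMb1* and *H2-DMb2*, and 26 in *H2-Ob*. In *H2-Aa*, the CREB letters precede the Y box. Both windows of *H2-DMa*, for which the table gives 2 starts, held none of these letters. In each, the stretch that corresponds to those shown lies wholly in a GENCODE intron. Absence of the letters there therefore cannot show that the *H2-DMa* promoter lacks them. Such matches describe the sequence only.

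The libraries held 16617187 to 18306359 estimated counts each. The 10 genes took 0.0159% to 0.0208% of the counts of the Sham libraries, 0.102% to 0.248% of those of the injured *VEGFR3fl/fl* libraries and 0.0629% to 0.111% of those of the injured *VEGFR3iLECko* libraries. Levels are given as CPM (a gene's counts relative to the total of its library), scaled between libraries by TMM factors. *Flt4*, which encodes VEGFR3 and was the targeted gene, was not lower in the libraries labelled *VEGFR3iLECko*, at 21.0 to 27.9 CPM against 16.8 to 23.0 in injured *VEGFR3fl/fl* (log2 difference 0.33, edgeR adjusted p = 0.200), so whole-iris RNA did not check that label. Iris muscle and pigment markers were present in all libraries, with a summed level of 23022 to 26016 CPM in Sham, 3058 to 5230 in injured *VEGFR3fl/fl* and 4955 to 5973 in injured *VEGFR3iLECko* irises. Y-linked transcripts summed to 51.1 to 167 CPM in Sham irises and to 151 and 136 CPM in injured *VEGFR3fl/fl* replicates 1 and 2, but to only 0.80 CPM in replicate 3 and 0.74 to 1.11 CPM in all *VEGFR3iLECko* libraries. Sex and genotype thus cannot be fully told apart, and injured *VEGFR3fl/fl* replicate 3 is the one control whose Y-linked level matches that of the *VEGFR3iLECko* libraries.

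CAI raised every one of the 10 genes. In the injured *VEGFR3fl/fl* versus Sham comparison, all 10 passed an adjusted p of 0.05 with more than 1.5-fold change, and the 3 injured libraries lay above the 3 Sham libraries for all 10. Among all genes tested, 22.1% passed in the same direction and 33.9% had injured libraries wholly above Sham. The median log2 fold change of the 10 was 3.35, from 1.55 for *H2-DMb1* to 3.84 for *H2-Aa*, beside a median of 0.01 over all genes tested.

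In the injured *VEGFR3iLECko* versus injured *VEGFR3fl/fl* comparison, none of the 10 passed the adjusted threshold, a threshold that 0.466% of all genes passed as lower. All 10 had a lower mean in *VEGFR3iLECko*, at 35.6% (*H2-Oa*) to 70.6% (*H2-DMb1*) of the injured *VEGFR3fl/fl* mean, with a median of 46.3%. The median log2 difference was -1.11, beside -0.01 over all genes tested. The unadjusted edgeR p was under 0.05 for all 10, as it was for 3674 of the 15010 genes tested, in either direction. Of the 10, 9 were also lower by more than 1.5-fold, which 3.28% of all genes were at that p. The *VEGFR3iLECko* libraries lay wholly below the injured *VEGFR3fl/fl* libraries for 6 of the 10 (*H2-Eb1*, *Ciita*, *H2-DMa*, *H2-DMb2*, *H2-Oa* and *H2-Ob*), against 14.3% of all genes. This comparison and the one with Sham share the injured *VEGFR3fl/fl* libraries and are not independent of each other.

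**Figure D1:**
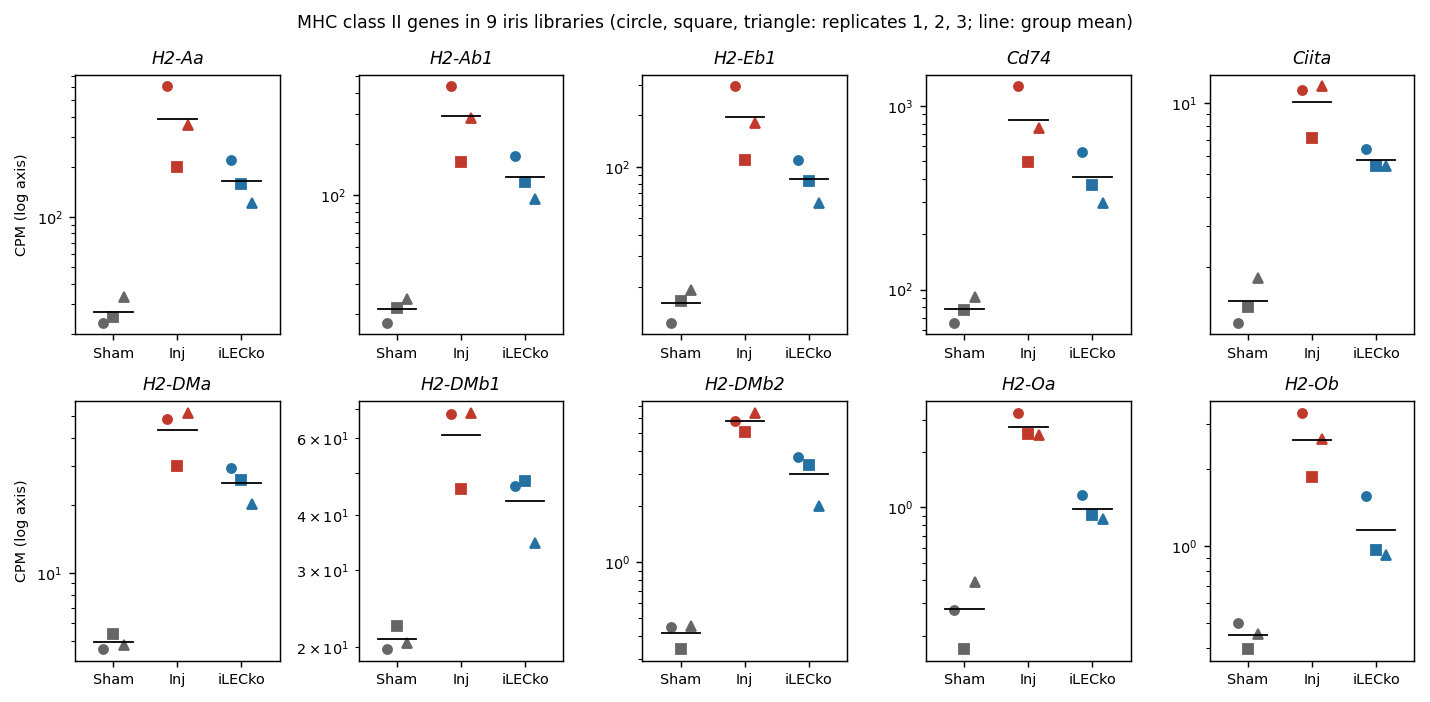
Levels of the 10 genes in CPM on log axes, 1 panel per gene, in Sham *VEGFR3fl/fl* (grey), injured *VEGFR3fl/fl* (Inj, red) and injured *VEGFR3iLECko* (iLECko, blue) libraries, with a line at each group mean. Sham libraries are lowest in every panel, and the injured groups overlap in *H2-Aa*, *H2-Ab1*, *Cd74* and *H2-DMb1*.

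*H2-Aa* (gene ID 14960, chr17:34282744-34287823 in GRCm38), the alpha chain of the I-A molecule, was at 23.3, 25.1 and 33.2 CPM in Sham replicates 1 to 3. It was at 607, 201 and 357 CPM in injured *VEGFR3fl/fl* and at 218, 157 and 121 CPM in injured *VEGFR3iLECko* irises. Every injured library exceeded every Sham library, and *VEGFR3iLECko* replicate 1 was above injured *VEGFR3fl/fl* replicate 2. The group means were 27.2 ± 5.25, 388 ± 205 and 165 ± 49.4 CPM (SD, n = 3 each). The log2 fold change after CAI was 3.84 ± 0.41 (SE, edgeR adjusted p = 4.52e-05), and that of *VEGFR3iLECko* against injured *VEGFR3fl/fl* was -1.23 ± 0.37 (edgeR adjusted p = 0.10).

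*H2-Ab1* (gene ID 14961, chr17:34257689-34269419), which encodes the beta chain that pairs with H2-Aa, moved with it. Its levels were 17.8, 21.6 and 24.7 CPM in Sham, 437, 157 and 285 CPM in injured *VEGFR3fl/fl* and 171, 119 and 95.2 CPM in *VEGFR3iLECko* irises. The replicates kept the same order as for *H2-Aa* in each group, and the ratio of *H2-Aa* to *H2-Ab1* counts stayed between 1.16 and 1.39 in all 9 libraries. The log2 fold change was 3.78 ± 0.38 after CAI (SE, edgeR adjusted p = 3.20e-05) and -1.19 ± 0.34 in *VEGFR3iLECko* versus injured *VEGFR3fl/fl* (adjusted p = 0.0931).

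*H2-Eb1* (gene ID 14969, chr17:34305867-34316674) encodes the beta chain of the I-E molecule. Mice of the C57BL/6 background express no I-E alpha chain, and *H2-Ea*, which would encode it, had no row in the files used here. *H2-Eb1* was at 12.3, 16.5 and 19.0 CPM in Sham, 296, 111 and 182 CPM in injured *VEGFR3fl/fl* and 109, 82.6 and 61.8 CPM in *VEGFR3iLECko* irises. The injured groups did not overlap, but by a narrow margin, since injured *VEGFR3fl/fl* replicate 2 was at 111 CPM and *VEGFR3iLECko* replicate 1 at 109 CPM. Its log2 fold change was 3.62 ± 0.38 after CAI (SE, edgeR adjusted p = 3.95e-05) and -1.21 ± 0.34 in *VEGFR3iLECko* versus injured *VEGFR3fl/fl* (adjusted p = 0.0877).

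*H2-Eb2*, a related beta chain gene outside the 10, was at 0 or 1 count in each Sham library and was higher after CAI by at least 5.18-fold, taking a floor of 3 counts per library for Sham. It was the only other class II gene on the list examined that was tested.

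*Cd74* (gene ID 16149, chr18:60803848-60812652), the invariant chain, rose by 10.8-fold with CAI. It was at 66.1, 77.2 and 90.9 CPM in Sham, 1274, 492 and 756 CPM in injured *VEGFR3fl/fl* and 557, 371 and 294 CPM in *VEGFR3iLECko* irises. As with *H2-Aa*, *VEGFR3iLECko* replicate 1 exceeded injured *VEGFR3fl/fl* replicate 2. The log2 fold change was 3.43 ± 0.37 after CAI (SE, edgeR adjusted p = 4.95e-05) and -1.04 ± 0.34 in *VEGFR3iLECko* versus injured *VEGFR3fl/fl* (adjusted p = 0.118).

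*Cd74* and *H2-Ab1* did not change by quite the same factor after CAI. The ratio of *Cd74* to *H2-Ab1* counts was 3.57 to 3.70 in Sham and 2.65 to 3.13 in injured *VEGFR3fl/fl* libraries, with no overlap (exact permutation p = 0.1, two-sided, the smallest that 3 against 3 allows). In *VEGFR3iLECko* libraries it was 3.09 to 3.26, which overlapped with injured *VEGFR3fl/fl*.

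*Ciita* (gene ID 12265, chr16:10480059-10528418), the master regulator of the group, rose with CAI as well. It was at 1.16, 1.36 and 1.80 CPM in Sham, 11.4, 7.14 and 11.8 CPM in injured *VEGFR3fl/fl* and 6.43, 5.44 and 5.41 CPM in *VEGFR3iLECko* irises. All 3 groups were separate, with *VEGFR3iLECko* in between. The log2 fold change was 2.81 ± 0.26 after CAI (SE, edgeR adjusted p = 1.74e-05) and -0.81 ± 0.23 in *VEGFR3iLECko* versus injured *VEGFR3fl/fl* (adjusted p = 0.0905). For each count of *Ciita* there were 50.5 to 56.9 counts of *Cd74* in Sham libraries and 64.0 to 112 in injured *VEGFR3fl/fl* libraries, without overlap (exact permutation p = 0.1), and 54.4 to 86.7 in *VEGFR3iLECko* libraries.

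*H2-DMa* (gene ID 14998, chr17:34119541-34139101), the alpha chain of the exchange factor H2-M, was at 4.60, 5.37 and 4.79 CPM in Sham, 48.2, 29.9 and 51.7 CPM in injured *VEGFR3fl/fl* and 29.3, 26.0 and 20.3 CPM in *VEGFR3iLECko* irises. The injured groups were apart, with replicate 2 of injured *VEGFR3fl/fl* close to replicate 1 of *VEGFR3iLECko*. Its log2 fold change was 3.14 ± 0.23 after CAI (SE, edgeR adjusted p = 4.58e-06), which had the smallest p of the 10. In *VEGFR3iLECko* versus injured *VEGFR3fl/fl* it was -0.78 ± 0.20 (adjusted p = 0.0775).

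The beta chain of H2-M is encoded by a pair of closely similar neighbouring genes, and both rose with CAI. *H2-DMb1* (gene ID 14999, chr17:34153072-34160230) was at 19.8, 22.4 and 20.4 CPM in Sham, 68.3, 46.0 and 68.6 CPM in injured *VEGFR3fl/fl* and 46.7, 47.9 and 34.6 CPM in *VEGFR3iLECko* irises. *H2-DMb2* (gene ID 15000, chr17:34143307-34151555) was at 0.44, 0.34 and 0.45 CPM in Sham, 5.83, 5.03 and 6.43 CPM in injured *VEGFR3fl/fl* and 3.68, 3.34 and 2.01 CPM in *VEGFR3iLECko* irises. *H2-DMb1* had the smallest fold change of the 10 after CAI, at 1.55 ± 0.18 on the log2 scale (SE, edgeR adjusted p = 6.66e-05), against 3.79 ± 0.30 for *H2-DMb2* (adjusted p = 8.06e-06).

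The ratio of *H2-DMb1* to *H2-DMb2* counts was 44.6, 66.0 and 45.3 in Sham, 11.7, 9.14 and 10.7 in injured *VEGFR3fl/fl* and 12.7, 14.3 and 17.2 in *VEGFR3iLECko* libraries. No group overlapped another in this ratio, and each pair of groups gave the smallest exact permutation p the design allows, 0.1. The Sham ratios, and the rise of *H2-DMb2*, rest on only 7.99, 6.03 and 8.02 estimated counts of *H2-DMb2* in Sham replicates 1 to 3. In *VEGFR3iLECko* versus injured *VEGFR3fl/fl*, *H2-DMb1* was at -0.50 ± 0.17 (edgeR adjusted p = 0.129) and *H2-DMb2* at -0.93 ± 0.25 (adjusted p = 0.0819). Both genes had fractional counts, and how reads that match both were counted is not given in the sources used here, so the split between them is uncertain.

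*H2-Oa* (gene ID 15001, chr17:34092340-34095234) and *H2-Ob* (gene ID 15002, chr17:34238903-34254414), the chains of the inhibitor H2-O, which is best known from B cells and thymus, were at few counts. *H2-Oa* was at 0.28, 0.17 and 0.39 CPM in Sham, from 5, 3 and 7 counts, and at 3.28, 2.52 and 2.47 CPM in injured *VEGFR3fl/fl*. In *VEGFR3iLECko* irises it was at 1.17, 0.91 and 0.86 CPM, from 20, 16 and 15 counts. *H2-Oa* had the widest separation of the injured groups among the 10, with a log2 difference of -1.49 ± 0.30 (SE, edgeR adjusted p = 0.0509), after a rise of 3.26 ± 0.35 with CAI (adjusted p = 4.42e-05).

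*H2-Ob* was at 0.50, 0.40 and 0.45 CPM in Sham, 3.34, 1.87 and 2.64 CPM in injured *VEGFR3fl/fl* and 1.58, 0.96 and 0.92 CPM in *VEGFR3iLECko* irises. Its injured groups did not overlap either. Its log2 fold change was 2.53 ± 0.35 after CAI (SE, edgeR adjusted p = 0.000233) and -1.18 ± 0.32 in *VEGFR3iLECko* versus injured *VEGFR3fl/fl* (adjusted p = 0.0827). For each count of *H2-Oa* there were 11.9 to 21.0 counts of *H2-DMa* in injured *VEGFR3fl/fl* libraries and 23.5 to 28.7 in *VEGFR3iLECko* libraries, without overlap (exact permutation p = 0.1). The Sham libraries, at 12.1 to 31.7 and with 3 to 7 *H2-Oa* counts, spanned both. In the GENCODE annotation, exons on the opposite strand share 321 of 1407 exon bases of *H2-Oa* (with *BC051537*), 360 of 3448 of *H2-DMa* (with *Brd2*) and 329 of 9535 of *Ciita* (with *Dexi*), and without stated use of strand in the counting, reads there cannot be told apart.

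**Figure D2:**
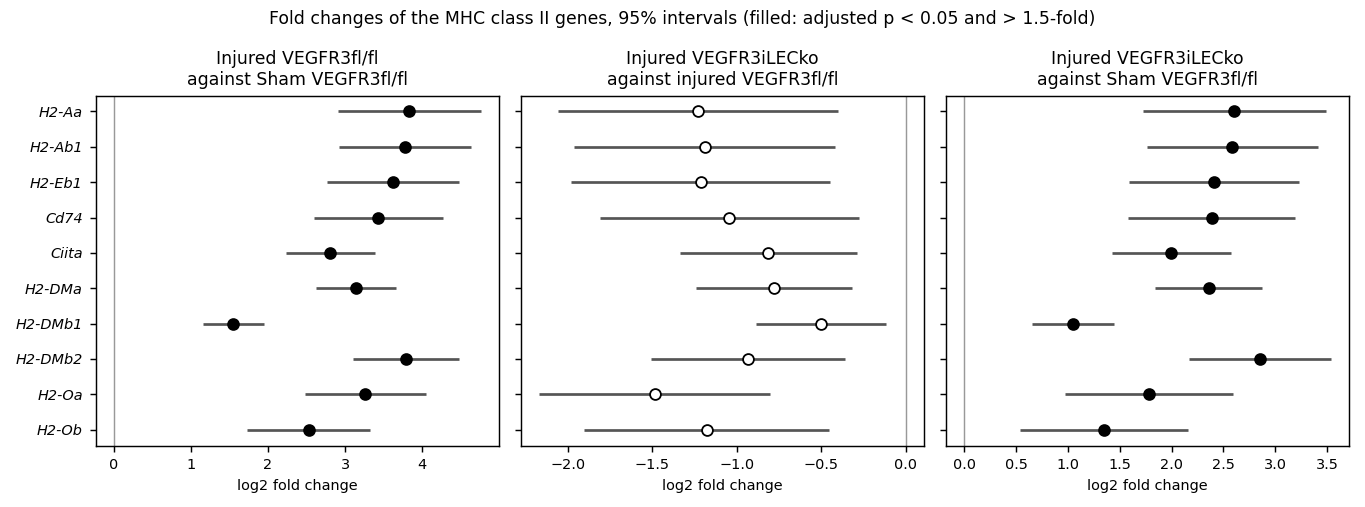
Log2 fold changes of the 10 genes with 95% intervals from the edgeR fit in the 3 comparisons, filled where the adjusted p was under 0.05 with more than 1.5-fold change. All points are filled in both comparisons with Sham and none in *VEGFR3iLECko* versus injured *VEGFR3fl/fl*, where the intervals, which are not adjusted for the number of genes, lie below 0.

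Levels between genes were compared per kilobase of the longest annotated transcript (GENCODE annotation of GRCm38). On that scale *Cd74* was highest in all groups, at 55.4 ± 8.84 CPM per kb in Sham, 596 ± 282 in injured *VEGFR3fl/fl* and 289 ± 95.8 in *VEGFR3iLECko* irises (SD, n = 3). *H2-Ab1* was next in all groups, at 17.6 ± 2.82, 242 ± 116 and 106 ± 31.8 CPM per kb. In Sham irises *H2-DMb1* came after it at 14.8 ± 0.97 CPM per kb, a range of 14.1 to 15.9 that overlapped with that of *H2-Ab1*, and stood above *H2-Eb1* and *H2-Aa*. After CAI it was below *H2-Aa* and *H2-Eb1* in both injured groups, and the ranges of *H2-Aa* and *H2-Eb1* overlapped each other. *Ciita* at 0.24 ± 0.05 and *H2-Ob* at 0.17 ± 0.02 CPM per kb were among the lowest in Sham, and *H2-Ob* was lowest in all groups. The order of genes depends on the transcript used, which had 3223 bases for *H2-Aa*, 1212 for *H2-Ab1* and 1404 for *H2-DMb1*. Without division by length, the Sham means of these 3 genes were 27.2, 21.4 and 20.8 CPM.

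The genes were still well above Sham in *VEGFR3iLECko* irises. All 10 passed the threshold in injured *VEGFR3iLECko* versus Sham, which 19.7% of all genes did as higher, and all 10 had no overlap with Sham, which 33.3% of all genes had. The median log2 fold change was 2.37, from 1.05 ± 0.18 for *H2-DMb1* (SE, edgeR adjusted p = 0.000890) to 2.85 ± 0.30 for *H2-DMb2* (adjusted p = 5.96e-05). For the classical chains it was 2.41 to 2.61. With the summed Y-linked level as a covariate, *H2-DMb1* (0.84, adjusted p = 0.0522) and *H2-Ob* (1.35, adjusted p = 0.106) no longer passed, in a fit in which 16.2% of all genes did.

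How many of these genes passed as lower in *VEGFR3iLECko* irises depended on single libraries and on the test. Injured *VEGFR3fl/fl* replicate 2 was the lowest of its group for 9 of the 10, and *VEGFR3iLECko* replicate 3 for all 10. Without injured *VEGFR3fl/fl* replicate 2, 6 genes passed (*H2-Aa*, *H2-Ab1*, *H2-Eb1*, *Ciita*, *H2-DMa* and *H2-DMb1*), as did 0.983% of all genes in that fit, with log2 differences of -0.67 for *H2-DMb1* to -1.54 for *H2-Aa* and a median of -1.34 over the 10. Without injured *VEGFR3fl/fl* replicate 1, which was highest of its group for 6 of the 10, none passed and the median was -0.76. DESeq2 also called 6 genes as lower (*H2-Aa*, *H2-Ab1*, *H2-Eb1*, *Ciita*, *H2-DMa* and *H2-DMb2*), with adjusted p from 0.00521 for *H2-Eb1* to 0.0454 for *H2-Aa*, and gave *H2-Oa* no adjusted p. It called 1.88% of all genes as lower. With the Y-linked level as a covariate none passed, the median was -1.03 and adjusted p ran from 0.299 to 0.659. Injured *VEGFR3fl/fl* replicate 3, the control with a low Y-linked level, was above every *VEGFR3iLECko* library for all 10 genes, which held for 29.6% of all genes tested.

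**Figure D3:**
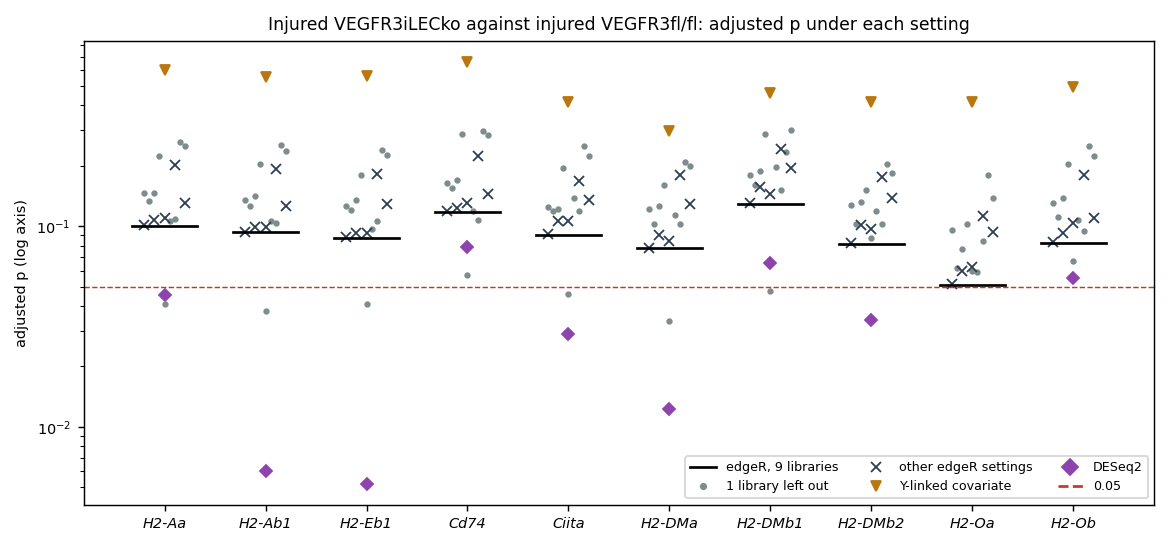
Adjusted p of each gene in injured *VEGFR3iLECko* versus injured *VEGFR3fl/fl*, on a log axis, in the edgeR fit of 9 libraries (black line) and under each other setting (symbols), with 0.05 dashed. Black lines lie between 0.0509 and 0.129, and the symbols under the dashed line are those of DESeq2 and of the fit without injured *VEGFR3fl/fl* replicate 2.

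The factors on which CIITA docks had small fold changes. Of the 7 genes of the RFX, CREB and NF-Y complex (*Rfx5*, *Rfxap*, *Rfxank*, *Creb1*, *Nfya*, *Nfyb* and *Nfyc*), none passed the threshold in any comparison, with a median log2 fold change of -0.19 after CAI. *Nfya* (0.43) and *Rfxap* (-0.42) had the largest changes after CAI, both with an adjusted p under 0.05 but under 1.5-fold. In *VEGFR3iLECko* versus injured *VEGFR3fl/fl* the median was -0.00094, with *Rfx5* at 0.31 (edgeR adjusted p = 0.187).

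Genes between IFN-γ and *Ciita* had smaller fold changes than *Ciita*. CAI raised 6 of the 8 tested (*Ifngr1*, *Ifngr2*, *Jak1*, *Irf1*, *Irf2* and *Socs1*), and the median log2 fold change of the 8 was 0.95. The inhibitor *Socs1* rose by 2.05 and the transcription factor *Irf1* by 1.20 on the log2 scale (edgeR adjusted p = 0.000291 and 3.36e-06). *Ifng* itself had 0 or 1 count in every library and was not tested. None of the 8 passed in *VEGFR3iLECko* versus injured *VEGFR3fl/fl*, with a median of -0.18 and *Irf1* at -0.26 (adjusted p = 0.113).

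Of 8 genes for endosomal proteases and a thiol reductase that process antigen and invariant chain, 7 rose with CAI, with a median log2 fold change of 1.93. *Ctss*, cathepsin S, which trims the invariant chain in dendritic cells and B cells, rose by 5.88 on the log2 scale, from 33.8, 38.0 and 44.7 CPM in Sham to 3238, 1644 and 2005 CPM in injured *VEGFR3fl/fl*, and was at 1473, 1341 and 1238 CPM in *VEGFR3iLECko* irises. *Lgmn*, the endopeptidase legumain, rose by 2.80 and *Ctsd*, cathepsin D, by 2.62. None of the 8 passed in *VEGFR3iLECko* versus injured *VEGFR3fl/fl* (median -0.47). *Ifi30*, the thiol reductase, was at -0.53 with an edgeR adjusted p of 0.0493 but under 1.5-fold, and *Ctss* was at -0.76 (adjusted p = 0.10).

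Of 4 tested genes that control class II turnover, CAI raised *Marchf1*, the ubiquitin ligase that removes class II from the surface, by 3.86 and *Cd83*, which opposes it, by 3.19 on the log2 scale. *Marchf8* and *Fbxo11* were lower after CAI, at -0.48 and -0.24 (edgeR adjusted p = 0.00325 and 0.0106), but by under 1.5-fold. All 4 costimulatory genes, *Cd80*, *Cd86*, *Cd40* and *Icosl*, rose, with a median of 2.40. None of these genes passed in *VEGFR3iLECko* versus injured *VEGFR3fl/fl*, where the median was -0.05 for turnover and -0.20 for costimulation, beside -1.11 for the 10 MHC class II genes.

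On the T cell side, *Cd4*, *Cd3e* and *Cd3g* rose after CAI, whereas *Lag3*, an inhibitory receptor for class II, did not pass (0.46, edgeR adjusted p = 0.199). None of these 4 passed in *VEGFR3iLECko* versus injured *VEGFR3fl/fl*, and their median was -1.13. *Cd4* is also carried by some myeloid cells.

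MHC class I genes, which present peptides from the cytosol, were examined beside class II. CAI raised 7 of 9, with a median log2 fold change of 1.75, and 0 of 9 passed in *VEGFR3iLECko* versus injured *VEGFR3fl/fl*, with a median of -0.46. For 7 of these 9, the *VEGFR3iLECko* libraries lay wholly below the injured *VEGFR3fl/fl* libraries, against 14.3% of all genes tested. Lower levels without overlap were thus not particular to class II. *Tap1*, a subunit of the peptide transporter, was at -0.53 with an edgeR adjusted p of 0.0461 but under 1.5-fold. *H2-K1*, a class I heavy chain gene, rose by 1.87, and the ratio of *H2-Aa* to *H2-K1* counts went from 0.129 to 0.197 in Sham to 0.368 to 0.887 in injured *VEGFR3fl/fl* libraries without overlap (exact permutation p = 0.1). It was 0.243 to 0.486 in *VEGFR3iLECko* libraries, which overlapped with injured *VEGFR3fl/fl* (exact permutation p = 0.2). *Nlrc5*, the class I counterpart of *Ciita*, also rose with CAI (edgeR adjusted p = 2.48e-06) and was at 0.06 in *VEGFR3iLECko* versus injured *VEGFR3fl/fl* (adjusted p = 0.803), where *Ciita* was at -0.81. *Nlrc5* was the 1 gene of the 9 with a positive log2 difference in that comparison, and the other 8 were negative.

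**Figure D4:**
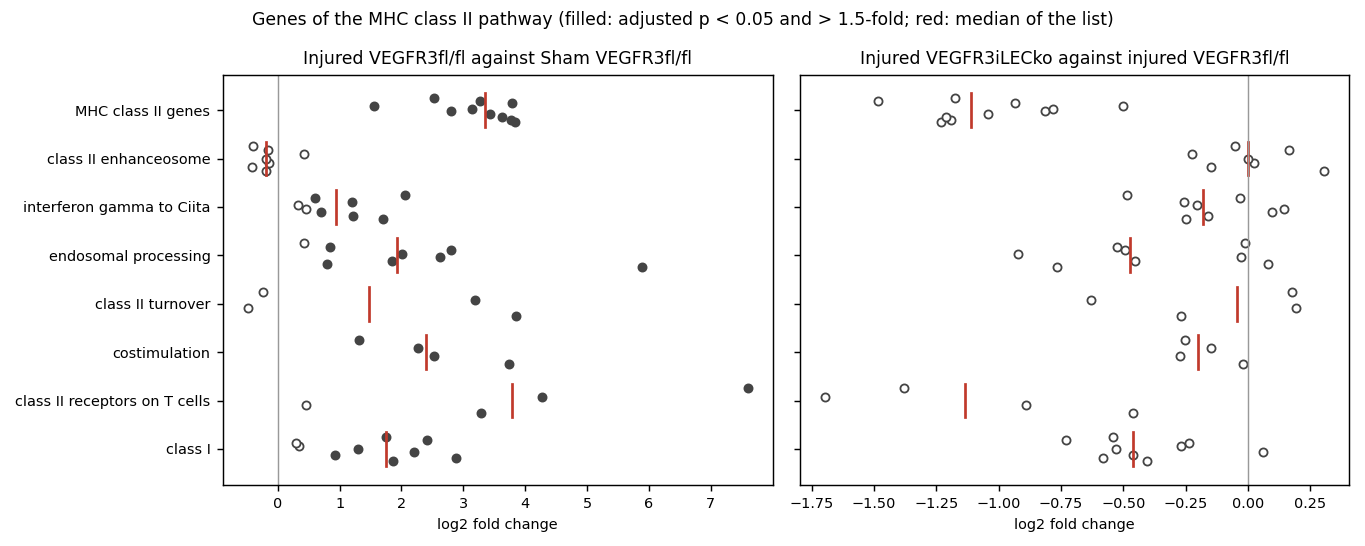
Log2 fold changes of the genes tested in each list of the class II pathway after CAI (left) and in injured *VEGFR3iLECko* versus injured *VEGFR3fl/fl* (right), filled where the adjusted p was under 0.05 with more than 1.5-fold change, with the median of each list in red. The 10 MHC class II genes have a median of 3.35 on the left and -1.11 on the right, and the CIITA docking factors lie between -0.42 and 0.43 on the left.

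Leukocyte markers rose with CAI as these genes did. In RNA of whole tissue, fewer cells of a type and less RNA per cell cannot be told apart. *Ptprc*, which encodes the pan-leukocyte antigen CD45, was at 7.40 to 8.05 CPM in Sham, 110 to 148 in injured *VEGFR3fl/fl* and 94.3 to 155 in *VEGFR3iLECko* libraries, a rise of 3.98 on the log2 scale with CAI and a difference of -0.03 between the injured groups (edgeR adjusted p = 0.943). All 8 macrophage markers rose with CAI, and their summed level was 337 to 346 CPM in Sham, 2829 to 3062 in injured *VEGFR3fl/fl* and 1730 to 1987 in *VEGFR3iLECko* libraries. Of these 8, *Adgre1*, *C1qa*, *C1qb* and *Fcgr1* passed as lower in *VEGFR3iLECko* versus injured *VEGFR3fl/fl*, with a median of -0.61 for the 8. For 7 of the 8, the *VEGFR3iLECko* libraries lay wholly below the injured *VEGFR3fl/fl* libraries, against 14.3% of all genes tested.

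Markers of dendritic cells, B cells and T cells had lower summed levels than those of macrophages. Dendritic cell markers summed to 11.5 to 13.1 CPM in Sham, 184 to 289 in injured *VEGFR3fl/fl* and 111 to 216 in *VEGFR3iLECko* libraries. *Itgax*, which some macrophages also carry, made up most of this sum in the injured libraries. CAI raised 7 of these 8 markers, and 0 of 8 passed in *VEGFR3iLECko* versus injured *VEGFR3fl/fl* (median -0.64). B cell markers summed to 1.41 to 1.5, 4.88 to 7.71 and 2.71 to 4.5 CPM in the same order, and of their defining members *Ms4a1* and *Pax5* were too low to be tested. T cell markers summed to 0.11 to 0.28, 9.70 to 11.5 and 4.21 to 5.49 CPM, with 5 of 5 raised by CAI and 0 of 5 passing between the injured groups (median -0.99). All 5 were lower in *VEGFR3iLECko* than in injured *VEGFR3fl/fl* libraries without overlap, as was 1 of the 8 dendritic cell markers, against 14.3% of all genes tested. The part of these cell types in the class II levels was not tested.

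*Ptprc* itself rose by 3.98 on the log2 scale with CAI, so most genes fell relative to it. Set against *Ptprc*, none of the 10 genes was higher in all injured *VEGFR3fl/fl* libraries than in all Sham libraries. The share of all genes higher by this ratio was not determined, and 94.3% were lower without overlap, so this count is not particular to the 10. The ratio of *H2-Aa* to *Ptprc* counts was 2.90, 3.39 and 4.12 in Sham, 5.38, 1.82 and 2.42 in injured *VEGFR3fl/fl* and 2.32, 1.37 and 0.78 in *VEGFR3iLECko* libraries. *Ciita*, *H2-DMa*, *H2-DMb1* and *H2-Ob* were lower per *Ptprc* in all injured *VEGFR3fl/fl* libraries than in all Sham libraries, as 94.3% of all genes tested were. The other 6 genes overlapped. Between the injured groups, *H2-DMb2*, *H2-Oa* and *H2-Ob* were lower per *Ptprc* in *VEGFR3iLECko* without overlap, against 1.55% of all genes, and the other 7 overlapped.

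Set against the summed macrophage markers, 9 of the 10 genes overlapped between the injured groups, where 0.2% of all genes tested were lower without overlap. The ratio of *H2-Aa* to these markers was 0.198, 0.0661 and 0.126 in injured *VEGFR3fl/fl* and 0.110, 0.0868 and 0.0698 in *VEGFR3iLECko* libraries (log2 difference -0.44, exact permutation p = 0.5). *H2-Oa* was the exception, at 0.00107, 0.000829 and 0.000873 in injured *VEGFR3fl/fl* and 0.000588, 0.000500 and 0.000499 in *VEGFR3iLECko* libraries, a log2 difference of -0.80 (exact permutation p = 0.1). For *H2-DMb1* the ratio differed most between Sham and injured *VEGFR3fl/fl* libraries, at 0.0586 to 0.0646 in Sham and 0.0152 to 0.0243 after CAI, without overlap, as 92% of all genes tested were lower by this ratio. *H2-Ob* was also lower without overlap after CAI (log2 difference -0.61), whereas *H2-DMb2* was higher without overlap (0.69). The share of all genes higher by this ratio was not determined. The other members overlapped between Sham and injured *VEGFR3fl/fl* libraries.

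**Figure D5:**
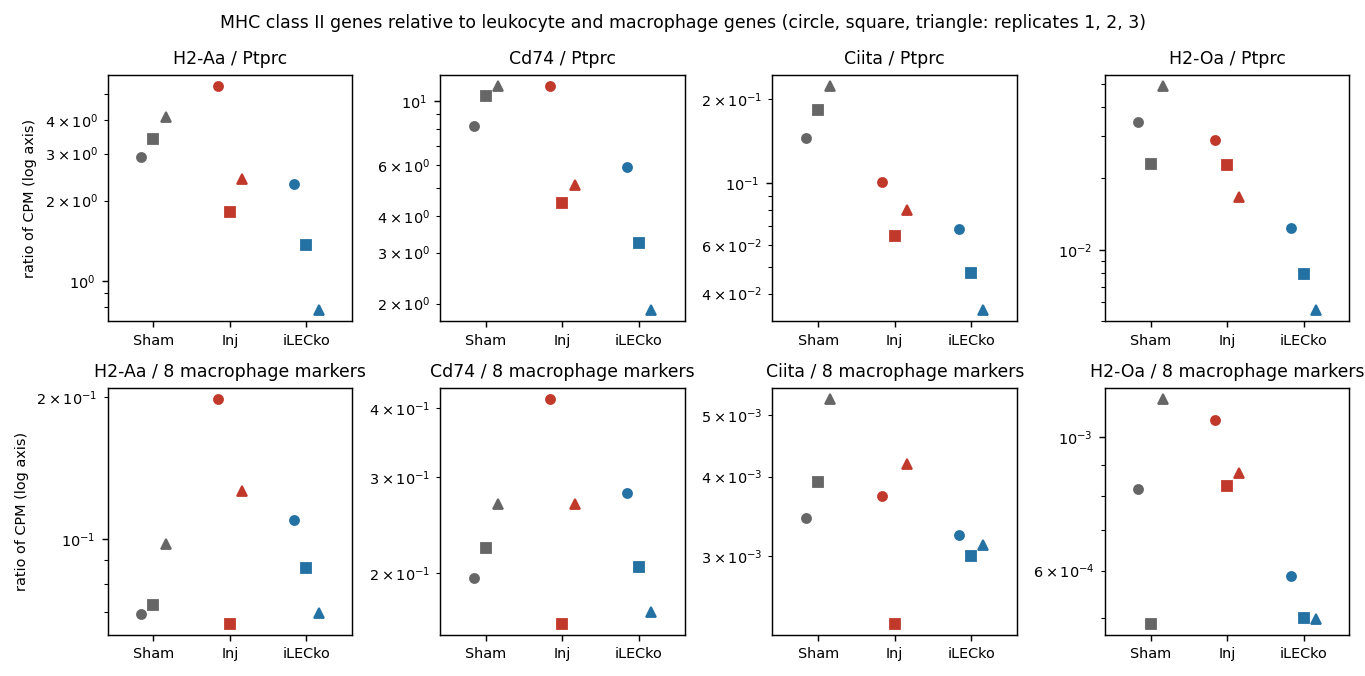
Ratios of *H2-Aa*, *Cd74*, *Ciita* and *H2-Oa* to *Ptprc* (top) and to the sum of 8 macrophage markers (bottom) in each library, on log axes, in Sham *VEGFR3fl/fl*, injured *VEGFR3fl/fl* (Inj) and injured *VEGFR3iLECko* (iLECko) groups. *Ciita* per *Ptprc* is lower in all injured libraries than in Sham, and *H2-Oa* is below injured *VEGFR3fl/fl* in all *VEGFR3iLECko* libraries in both rows.

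Injured *VEGFR3fl/fl* replicate 1 had the highest level of *H2-Aa*, *H2-Ab1*, *H2-Eb1*, *Cd74*, *H2-Oa* and *H2-Ob*. It also held 3238 CPM of *Ctss* and 623 CPM of the protease gene *Ctsh*, against 265 and 268 CPM of *Ctsh* in replicates 2 and 3. Of 4 corneal epithelium genes, *Aldh3a1* was at 117 CPM in that library, against 1.93 and 10.2 CPM in replicates 2 and 3. The keratin genes *Krt12*, *Krt5* and *Krt14* were at 0.18, 0.18 and 0 CPM, no higher than in replicates 2 and 3. The genes by which the paper checked for ciliary body tissue were highest in replicate 1. *Atp6v1c2* had 27 counts there, against 3 and 3 in replicates 2 and 3, and *Cacna1e* had 33, against 22 and 22. Summed lens markers were lowest there, at 10.1 CPM against 52.3 and 34.8 CPM. Whether other tissue added to the class II levels of that library was not tested.

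The genes whose profile over the 9 libraries was most like that of *Cd74*, by the root mean square difference of centred log2 CPM among 14212 genes with the 10 left out, were *Arl11* (0.23), *Pamr1* (0.24), *Serpinf1* (0.26), *Ly86* (0.27) and *Mfge8* (0.27). *Arl11* was at 6.16 to 6.59 CPM in Sham, 49.3 to 99.1 in injured *VEGFR3fl/fl* and 33.6 to 42.1 in *VEGFR3iLECko* libraries. Among the 10 themselves, *H2-Eb1* (0.11), *H2-Ab1* (0.15) and *H2-Aa* (0.17) were nearer to *Cd74*, and *H2-DMb1* (0.81) was farthest. For *Ciita* the most alike were *Lbp* (0.18), *Sp110* (0.19), *B3gnt8* (0.19), *Rnase6* (0.22) and *Rassf4* (0.22). *Sp110* was at 3.33 to 3.77, 20.0 to 28.9 and 14.8 to 16.7 CPM in the same order of groups, and *H2-DMa* (0.25) was the nearest of the 10 to *Ciita*.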

How the data were processed

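Iris mRNA was sequenced as single-end reads in 9 libraries (3 groups of 3). The authors deposited estimated counts per gene, not normalized, after alignment with HISAT2 2.0.4 and Bowtie2 2.2.5 to mm10, per the submitters' processing notes; the counting program and annotation are not given in the sources used here. Between 9.83% and 10.3% of a library's values were not whole, and counts were rounded. A combined table of the same values with group averages was not used. Groups followed titles, treatments and descriptions. All libraries entered 1 edgeR 4.0.16 fit (R 4.3.3; filterByExpr, TMM, quasi-likelihood). P-values were adjusted over 15010 genes (Benjamini-Hochberg), with calls at adjusted p under 0.05 and over 1.5-fold. The script was tested on simulated data. Ratios used exact two-sided permutation tests. All 10 members were named, as were the 5 genes most like *Cd74* and *Ciita* with a mean of at least 1 CPM; pathway and marker genes came from listed sets, some of whose members are not reported here by name. Members and lists were chosen with earlier results of these data known. The alternatives were DESeq2 1.42.0, other scalings, no filter, fewer libraries, a replicate block and a Y-linked covariate. Libraries were separate pools of mice, and replicates differed by more than counting noise (chi-square per degree of freedom 5.13 to 76.2).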

Additional observations from a re-analysis of the deposited data

How the results depend on the processing

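All 10 genes passed after CAI under each alternative run, and in injured *VEGFR3iLECko* versus Sham under each but the Y-linked covariate, where 8 passed. In *VEGFR3iLECko* versus injured *VEGFR3fl/fl*, 0 of 10 passed in edgeR, 10 at an unadjusted p under 0.05, and 6 with the DESeq2 Wald test. That unadjusted p was reached by 3674 of the 15010 genes tested, in either direction. Leaving out 1 library gave 10 to 10 genes after CAI, 0 to 6 between the injured groups and 10 to 10 in *VEGFR3iLECko* versus Sham, where a group left with 2 libraries was fitted with the spread of all groups. The 6 came without injured *VEGFR3fl/fl* replicate 2, and the cause was not tested. No direction reversed. Groups share replicate numbers 1 to 3, and deviations of same-numbered libraries correlated at -0.39 to 0.13. Differently numbered libraries were not compared, so these values cannot decide whether the number marks a pairing. With a replicate block the counts of the 10 genes were 10, 0 and 10, with adjusted p from 0.0939 between the injured groups, where genes called over all fell from 86 higher and 70 lower to 11 and 13. Over all genes between the injured groups, DESeq2 called 344 higher and 282 lower, the fit of only these 6 libraries 0 and 0, and the Y-linked covariate 0 and 2. Scaling by library size alone moved the median of all genes after CAI from 0.01 to -0.16 and the calls from 3323 higher and 2630 lower to 2783 and 3523, with a median of 3.16 for the 10 genes. *H2-Oa* and *H2-Ob* rest on 3 to 9 counts per Sham library, and *H2-DMb2* on 6.03 to 8.02.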
